A study of Mus musculus with 8 samples.

Results

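Polycomb repressive complexes keep developmental genes silent, and several of their subunits come as sets of paralogues of which a cell type uses some and not others. RNA-seq counts of 9 polycomb genes were examined here, out of 32567 genes in the deposited table: the chromobox genes Cbx2, Cbx6, Cbx7 and Cbx8, the methyltransferase genes Ezh1 and Ezh2, the ring finger genes Bmi1 and Pcgf2, and Jarid2. They were chosen by name. The chromobox, methyltransferase and ring finger genes are paralogues whose use is known to differ between cell types, and Jarid2 belongs to none of these sets. Every one of the 9 passed the limit on low expression, as did 14417 genes in all. The limit was a log2 CPM averaged over the 4 libraries above 0. CPM is counts per 1000000 counts of the library, with the library total scaled by TMM, the trimmed mean of M-values.

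The 4 RNA-seq libraries came from mouse embryonic stem cells (ESC) and from their retinoic acid-treated progeny (RA-DIFF). At each stage 1 library was of wild-type cells and the other of cells with both huntingtin (Htt) alleles carrying Hdh ex4/5, in which exons 4 and 5 of the gene are targeted (Htt-null). For RA-DIFF, ESC were taken off feeder cells for 4 passages and grown as embryoid bodies for 8 days, with 5 µM retinoic acid from day 4, and were collected 2 h after plating; ESC received no retinoic acid and were kept on irradiated mouse fibroblasts or on gelatin, with leukemia inhibitory factor. The strain and the number of clones behind each line are not given in the sources used here. Another 4 libraries hold the small RNAs of the same conditions. Each condition had 1 library per assay, so no difference below has a replicate check and no p-value is given, and the 95% intervals cover counting error only. They allow 4 comparisons, RA-DIFF with ESC in either genotype and Htt-null with wild type in either stage, and each library enters more than 1 of them.

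Polycomb repressive complex 2 (PRC2) places methyl groups on lysine 27 of histone H3 through Ezh2 or its paralogue Ezh1, held in a core with Suz12 and Eed, while Jarid2 helps to bring the complex to its targets and Mtf2, Phf1 and Phf19 are alternative accessory subunits. Polycomb repressive complex 1 (PRC1) ubiquitinates histone H2A through Rnf2 or Ring1, joined to 1 of 6 Pcgf proteins. Canonical complexes hold Pcgf2 (also Mel18) or Pcgf4 (Bmi1) together with a Cbx protein, whose chromodomain binds the methylated lysine. Cbx7 is known as the main Cbx gene of ESC, and Cbx2 and Cbx8 as genes of differentiating cells.

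Some of these genes are known from the literature to be targets of microRNAs (miRNAs). The sequences of those that bear on the values below are shown first, from RefSeq (GRCm38.p6), 5′ to 3′, with the seed (bases 2 to 8) in capitals. For Cbx7 these were the miR-181 and the miR-125 pairs, and the members of each pair share 1 seed:
miR-181a-5p: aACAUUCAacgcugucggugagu
miR-181b-5p: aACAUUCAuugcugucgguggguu
miR-125a-5p: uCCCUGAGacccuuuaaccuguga
miR-125b-5p: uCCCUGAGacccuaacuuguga

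The 3′ untranslated region of Cbx7 (2509 bp in its longest annotated form) held 2 matches to the miR-181 seed and 2 to the miR-125 seed, shown here on the minus strand of chromosome 15 with the 7 matching bases in capitals:
miR-181 match at chr15:79916291-79916317: cccctgcatattTGAATGTagaggttg
miR-181 match at chr15:79915984-79916010: gttcagacgaccTGAATGTattgggag
miR-125 match at chr15:79917383-79917409: tcccaccactttCTCAGGGcagtcctt
miR-125 match at chr15:79916517-79916543: ggctggatatccCTCAGGGtagccatg

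Such matches are frequent in a region of this length: 26.9% of the 3274 annotated 3′ untranslated regions within 25% of that length held at least 1 TGAATGT and 22.9% held at least 1 CTCAGGG. For Ezh2, whose region is short (402 bp), the miR-101 and miR-26 families are among the known partners and are shown:
miR-101a-3p: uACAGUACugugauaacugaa
miR-26a-5p: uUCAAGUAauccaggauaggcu
miR-101 match at chr6:47530468-47530494: caggaaccttgaGTACTGTgggcaatt
miR-101 match at chr6:47530413-47530439: tgaatttgcaaaGTACTGTaacagtaa
miR-26 match at chr6:47530279-47530305: ttgaataaagaaTACTTGAacttgttg

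Of 2275 regions within 25% of the Ezh2 length, 2.77% held at least 1 GTACTGT and 2.86% at least 1 TACTTGA. The Ezh2 region also held 1 match to the seed of let-7a-5p, let-7b-5p and let-7c-5p, found in 3.08% of those regions. It held 0 matches to the seed of miR-214-3p, which is also listed for Ezh2. Of 6 miRNAs listed for Bmi1, the miR-200 pair is shown. It was chosen after the values were seen, for a level that went the other way from that of Bmi1; the region also held 2 matches to the seed of miR-218-5p and 1 each to those of miR-128-3p and miR-203-3p, whose levels were higher in RA-DIFF with TMM:
miR-200b-3p: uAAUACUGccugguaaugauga
miR-200c-3p: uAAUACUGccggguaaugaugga
miR-200 match at chr2:18685156-18685182: cataacaggaaaCAGTATTgtatgata

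CAGTATT was present in 20.9% of the 3505 regions within 25% of the length of the Bmi1 region (2148 bp). The same 7 letters occur in other members too, the miR-181 match once each in Cbx8, Pcgf2 and Jarid2, the miR-125 match at 2 places in Cbx2 and 1 in Ezh1, the miR-101 match in Cbx6, and the miR-26 match in Bmi1 and Jarid2. These matches describe the sequence, and no binding was measured.

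Total counts per RNA-seq library were between 63617410 and 110569127, and 3 counts, the limit that a count of 0 allows, corresponded to 0.0268 to 0.0460 CPM. Expression of Htt was looked at first as a check of the labels. It stood at 166 CPM in wild-type ESC and 111 CPM in Htt-null ESC, but at 73.3 CPM in RA-DIFF labelled wild type and 98.7 CPM in the one labelled Htt-null. In ESC the gene was thus lower in the Htt-null library by 0.58 on the log2 scale, and in RA-DIFF it was higher in the library labelled Htt-null (log2 ratio 0.43). The count table sums reads over all exons of the gene, so reads outside exons 4 and 5 enter it. Because Htt went against the label in RA-DIFF, these libraries are called by their labels throughout, and the values with the labels exchanged are given for the members whose RA-DIFF libraries were furthest apart. Whether the labels of these libraries were exchanged was not tested, and the sign of every genotype difference in RA-DIFF rests on them.

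The cell states were those of the labels by their marker genes. All 8 pluripotency markers, Pou5f1 and Nanog among them, were lower in both RA-DIFF libraries, with a summed level of 3693 to 3742 CPM in ESC and 17.5 to 71.1 CPM in RA-DIFF. All 7 neural progenitor markers were higher in RA-DIFF, from 123 to 132 CPM summed in ESC to 4246 to 5420 CPM. Neuron markers summed to 271 to 301 CPM in ESC, 2495 CPM in RA-DIFF labelled wild type and 1180 CPM in the one labelled Htt-null. Of these 7 markers 6 were higher in RA-DIFF with either label, and Stmn2, which gave 209 to 214 CPM of the ESC sum, was at 203 and 94.9 CPM. Markers of fibroblasts and mesenchyme, which would also show feeder cells, summed to 1198 to 1328 CPM in ESC, of which Fn1 alone gave 1173 to 1290 CPM, with Lum or Dcn at 0 counts in each of the ESC libraries. In RA-DIFF they summed to 643 CPM in the library labelled wild type and 2493 CPM in the one labelled Htt-null. Fn1 was lower in both RA-DIFF libraries (92.8 and 372 CPM), while 5 and 6 of the 7 markers above the expression limit were higher, Col3a1 among them (2.40 and 0.812 CPM in ESC, 364 and 922 CPM in RA-DIFF). A marker nearly silent in ESC, such as Dcn with 10 and 0 counts, could pass the expression limit only through RA-DIFF. Over all tested genes, 32.5% and 32.9% were higher in cells labelled wild type and Htt-null by a log2 ratio past 0.75, and 24.9% and 23.5% lower. In bulk RNA, fewer cells of a type and less RNA per cell cannot be told apart.

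With differentiation the 9 genes went in different directions. Cbx7, Ezh1 and Jarid2 were lower in RA-DIFF than in ESC in both genotypes, Cbx8, Bmi1 and Cbx2 were higher in both, Cbx6 was past the limit in cells labelled Htt-null, and Ezh2 and Pcgf2 stayed within it. A gene was counted as higher or lower when its log2 ratio of scaled CPM was past 0.75 in either direction. At a limit of 1, Cbx2 (0.85) and Cbx6 (0.98) were no longer counted in cells labelled Htt-null. By this rule 3 of the 9 were higher and 3 lower in cells labelled wild type, where 32.5% of all tested genes were higher and 24.9% lower. With the Htt-null label the numbers were 4 and 3, with 32.9% of all genes higher and 23.5% lower. With 57.4% and 56.4% of all genes past the limit in one direction or the other, the number of the 9 that passed is near the background, and what follows is about which of them did and how far. The median log2 ratio of the 9 was 0.29 and 0.28, against 0.11 and 0.16 for all tested genes.

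**Figure D1:**
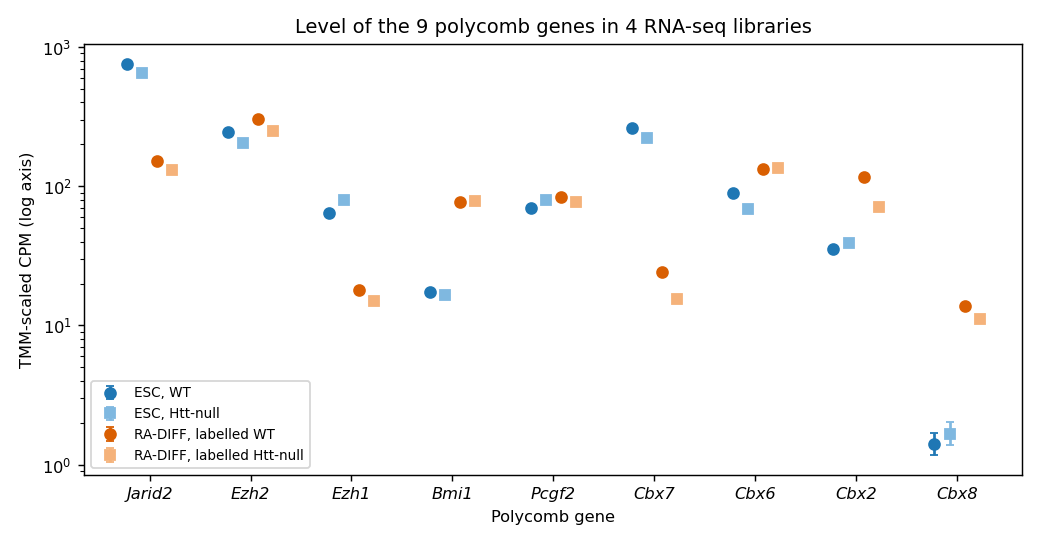
TMM-scaled CPM (log axis) of the 9 polycomb genes in the 4 RNA-seq libraries, 1 point per library, with 95% Poisson intervals of the count that are mostly smaller than the points. Cbx7, Ezh1 and Jarid2 are lower in both RA-DIFF libraries than in both ESC libraries, Cbx8, Bmi1 and Cbx2 are higher, and Ezh2 and Pcgf2 lie close together.

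Among the chromobox genes, Cbx7 had the largest decrease of the 9. Its level was 261 CPM in wild-type ESC and 224 CPM in Htt-null ESC, and 24.2 and 15.6 CPM in the RA-DIFF libraries labelled wild type and Htt-null. The lower ESC value was still 9.25 times the higher RA-DIFF value, so the stages were far apart in either genotype and with either label. The log2 ratio of RA-DIFF over ESC was -3.43 (95% interval -3.49 to -3.37) in cells labelled wild type and -3.84 (-3.92 to -3.77) in cells labelled Htt-null, that is 10.8-fold and 14.3-fold lower. With the RA-DIFF labels exchanged, the ratios were -4.07 and -3.21, so the larger decrease changed genotype. Cbx7 lies at chr15:79915807-79971119 on the minus strand, and 100 bp of its exons (1.54%) overlap exons of Apobec3 on the other strand. The methods name no strand option for the counting and leave unnamed options at their defaults, and Apobec3 itself had 19749 and 11326 counts in the ESC libraries and 1788 and 3710 in RA-DIFF.

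Cbx8, one of the Cbx genes of differentiating cells, stood at the other end. It gave 122 and 109 counts in wild-type and Htt-null ESC (1.41 and 1.67 CPM) and 1541 and 1102 counts in the RA-DIFF libraries labelled wild type and Htt-null (13.8 and 11.2 CPM). The ratio was 9.78-fold in cells labelled wild type (log2 3.29, 3.02 to 3.57) and 6.70-fold in cells labelled Htt-null (2.74, 2.46 to 3.04). The wider intervals come with the low counts in ESC. Exchanged labels gave 7.95-fold and 8.23-fold.

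Cbx2, whose product compacts chromatin and is known for its part in body patterning and sex determination, was already present in ESC. Its level was 35.1 and 39.2 CPM in wild-type and Htt-null ESC, 117 CPM in RA-DIFF labelled wild type and 70.9 CPM in the one labelled Htt-null. Both RA-DIFF libraries were above both ESC libraries, and the RA-DIFF libraries differed from each other more for Cbx2 than for any other of the 9. The increase was 3.33-fold in cells labelled wild type (log2 1.73, 1.68 to 1.79) and 1.81-fold in cells labelled Htt-null (0.85, 0.79 to 0.92). With the RA-DIFF labels exchanged, the log2 ratios were 1.01 and 1.58, so which genotype had the larger increase depends on the labels.

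Cbx6, a chromobox gene that is known to be expressed in brain, differed little between the RA-DIFF libraries. It had 89.9 and 68.3 CPM in wild-type and Htt-null ESC and 132 and 134 CPM in RA-DIFF labelled wild type and Htt-null. Both RA-DIFF values were above both ESC values and lay close to each other, while the ESC values were further apart. The log2 ratio was 0.55 (0.51 to 0.59) in cells labelled wild type, under the limit, and 0.98 (0.93 to 1.02) in cells labelled Htt-null, past it.

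Cbx2 and Cbx8 lie close to each other on chromosome 11, with 5.03 kb between Cbx2 (chr11:119022962-119031270, plus strand) and Cbx8 (chr11:119036305-119040969, minus strand), and both were higher in RA-DIFF. Cbx6 (chr15:79823896-79834688) and Cbx7 are also neighbours, 81.1 kb apart on the minus strand of chromosome 15, and these differed in direction.

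**Figure D2:**
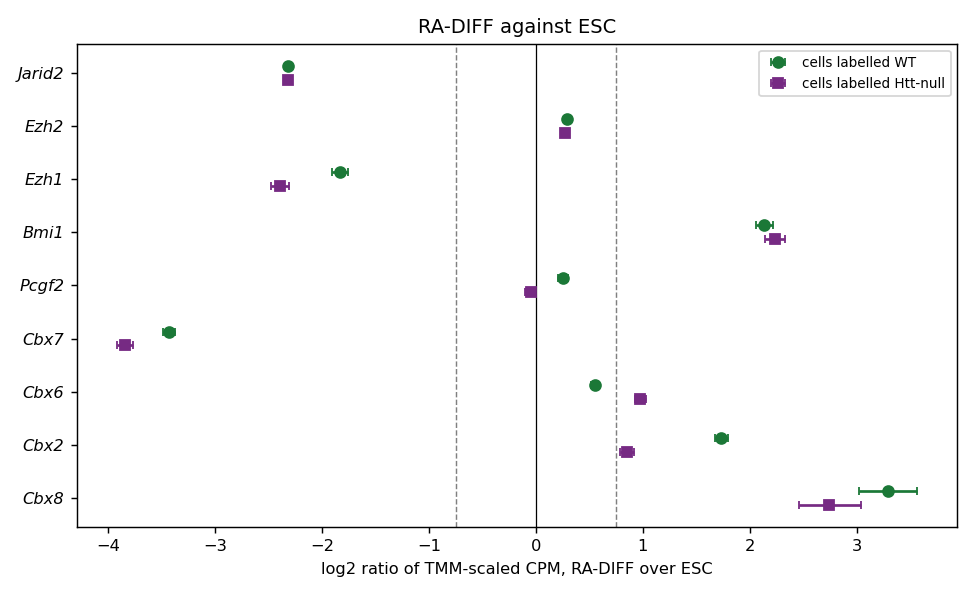
Log2 ratio of TMM-scaled CPM, RA-DIFF over ESC, of the 9 genes in cells labelled wild type (circles) and Htt-null (squares), with 95% counting intervals; dashed lines mark the limit of 0.75. Cbx8, Bmi1 and Cbx2 lie to the right of the limit and Cbx7, Ezh1 and Jarid2 to the left of it in both genotypes.

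Counts per kb of exon, taken within a library, show the exchange among the 4 Cbx genes without any scaling between libraries. In ESC, Cbx7 made up 70.1% of the 4 in wild-type cells and 68.2% in Htt-null cells. In RA-DIFF its share was 7.86% in the library labelled wild type and 6.92% in the one labelled Htt-null. Cbx7 thus went from the largest of the 4 in both ESC libraries to the smallest in RA-DIFF labelled Htt-null, and to a level shared with Cbx8 in the one labelled wild type.

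Cbx2 took the first place. Its share was 14.4% and 18.2% in wild-type and Htt-null ESC, and 58.0% and 47.9% in RA-DIFF labelled wild type and Htt-null. Cbx6 went from 14.8% and 12.7% to 26.3% and 36.4%. Both ends of this order depend on the length. On plain counts Cbx7 stayed above Cbx8 in RA-DIFF, with 8.42% against 4.79% in the library labelled wild type and 6.72% against 4.83% in the other. Cbx6 was then ahead of Cbx2 in RA-DIFF with 46.03% and 57.9%, against 40.8% and 30.6% for Cbx2. Cbx8 was at 0.668% and 0.899% in ESC and at 7.90% and 8.76% in RA-DIFF, so it stayed a minor member of the set. In RA-DIFF labelled wild type, Cbx7 and Cbx8 could not be told apart per kb (3.73 CPM per kb, 3.59 to 3.87, and 3.74 CPM per kb, 3.56 to 3.93). The sum of the 4 genes moved less than its parts, from 57.3 and 50.6 CPM per kb in wild-type and Htt-null ESC to 47.4 and 34.7 CPM per kb in RA-DIFF labelled wild type and Htt-null.

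The ratio of Cbx7 to Cbx2 puts the exchange in 1 number. Per kb it was 4.87 (4.69 to 5.06) in wild-type and 3.74 (3.59 to 3.90) in Htt-null ESC, and 0.136 (0.130 to 0.141) and 0.144 (0.137 to 0.153) in RA-DIFF labelled wild type and Htt-null. The ratio was 35.9-fold lower in RA-DIFF in cells labelled wild type and 25.9-fold lower in cells labelled Htt-null. The 2 RA-DIFF libraries had nearly the same ratio although their Cbx2 levels differed.

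**Figure D3:**
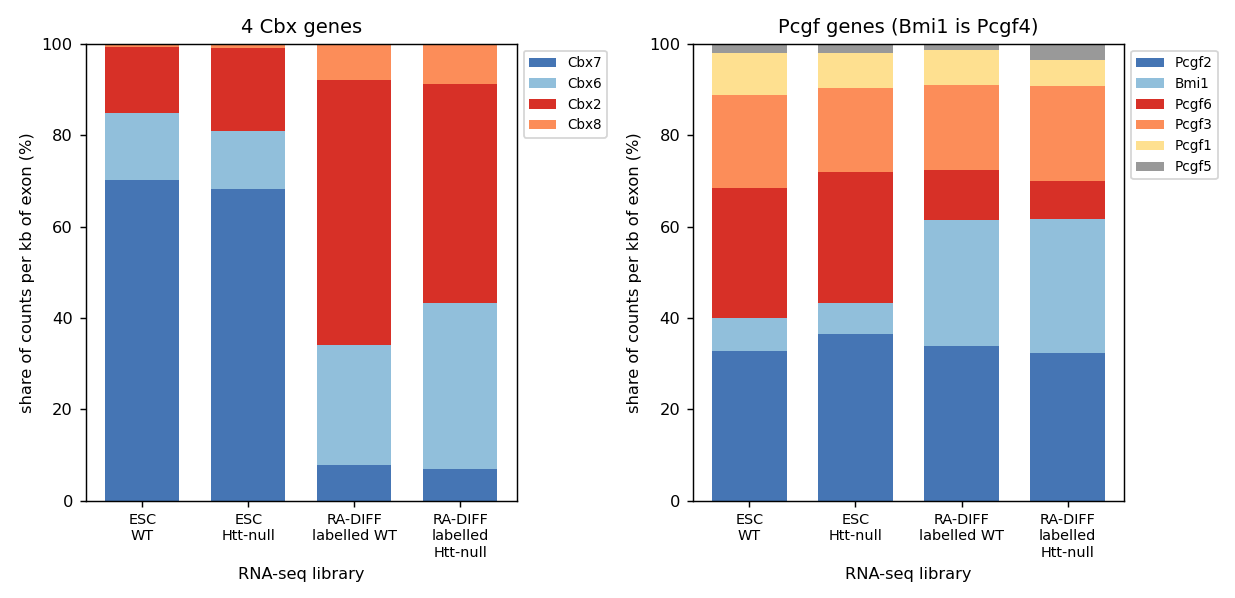
Share (%) of each gene in the summed counts per kb of exon of the 4 Cbx genes (left) and of the 6 Pcgf genes (right), 1 bar per RNA-seq library, each adding to 100%. Cbx7 takes 70.1% and 68.2% of the Cbx bars in ESC and 7.86% and 6.92% in RA-DIFF, and Bmi1 goes from 7.24% and 6.78% to 27.6% and 29.2% of the Pcgf bars.

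For the ring finger genes of canonical PRC1, the level of one paralogue was higher in RA-DIFF while the other stayed. Bmi1, which is known for its part in the self-renewal of neural and blood stem cells, had 17.4 and 16.6 CPM in wild-type and Htt-null ESC and 76.5 and 78.0 CPM in RA-DIFF labelled wild type and Htt-null. The 2 libraries of each stage nearly coincided, and the stages were well apart. The increase was 4.39-fold in cells labelled wild type (log2 2.13, 2.05 to 2.21) and 4.71-fold in cells labelled Htt-null (2.24, 2.14 to 2.33). Bmi1 lies at chr2:18677018-18686629 on the plus strand, and 16.7% of its 50-base stretches recur in other genes, nearly all in the pseudogene Gm5946, so some of its reads could have been assigned elsewhere.

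Pcgf2 (chr11:97688823-97700497, minus strand) had 70.1 and 79.3 CPM in wild-type and Htt-null ESC and 83.4 and 76.6 CPM in RA-DIFF labelled wild type and Htt-null. The stages overlapped. Its log2 ratio was 0.25 (0.20 to 0.30) in cells labelled wild type and -0.05 (-0.10 to 0.00) in cells labelled Htt-null, both within the limit. Per kb, the ratio of Bmi1 to Pcgf2 went from 0.221 (0.208 to 0.233) in wild-type and 0.185 (0.173 to 0.198) in Htt-null ESC to 0.814 (0.791 to 0.839) and 0.903 (0.875 to 0.933) in RA-DIFF labelled wild type and Htt-null. The ratio was 3.69-fold and 4.87-fold higher in RA-DIFF. Pcgf2 remained the more abundant of the pair per kb in every library.

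The other Pcgf genes belong to the variant complexes, which hold no Cbx protein. Pcgf6, known to act with Mga in silencing germ cell genes in ESC, was lower in RA-DIFF by 1.18 and 1.64 on the log2 scale in cells labelled wild type and Htt-null. Its share of the 6 went from 28.5% and 28.6% in ESC to 10.9% and 8.39%, while that of Pcgf2 stayed between 32.3% and 36.6% and that of Pcgf3 between 18.3% and 20.9%. Pcgf1 had 9.26% in wild-type ESC and 5.65% to 7.82% elsewhere. Pcgf5 was the smallest per kb in every library, at 1.298% to 3.50% (on plain counts Pcgf1 was, at 1.77% to 2.93%), and the only one of the 6 past the limit between the RA-DIFF libraries (log2 ratio 1.38, Htt-null over wild type by the labels).

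Among the methyltransferases, Ezh1 was lower in RA-DIFF and Ezh2 was not. Ezh1, the paralogue that is known for its weaker enzyme activity and for its presence in cells that do not divide, had 64.4 and 79.2 CPM in wild-type and Htt-null ESC and 18.1 and 15.1 CPM in RA-DIFF labelled wild type and Htt-null. The 2 stages were far apart, with the log2 ratio at -1.83 (-1.91 to -1.76) in cells labelled wild type and -2.39 (-2.48 to -2.31) in cells labelled Htt-null. This is 3.56-fold and 5.25-fold lower, or 4.28-fold and 4.38-fold with exchanged labels.

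Ezh2 had 247 and 206 CPM in wild-type and Htt-null ESC and 302 and 249 CPM in RA-DIFF labelled wild type and Htt-null. The highest ESC value nearly met the lowest RA-DIFF value, and the log2 ratios, 0.29 (0.27 to 0.32) and 0.28 (0.25 to 0.31), were within the limit, as they were with exchanged labels (0.01 and 0.55). Ezh2 was above Ezh1 per kb in all 4 libraries, 4.27 and 2.90 times in wild-type and Htt-null ESC and 18.6 and 18.4 times in RA-DIFF labelled wild type and Htt-null. The ratio of Ezh1 to Ezh2 was 4.36-fold and 6.36-fold lower in RA-DIFF. Proliferation markers, of which Ezh2 is known to follow the level, summed to 4946 to 5379 CPM in ESC and 3456 to 3509 CPM in RA-DIFF. Top2a was the highest of them, at 2160 and 1920 CPM in wild-type and Htt-null ESC and 994 and 948 CPM in RA-DIFF. Of the 10 genes 4 and 3 were lower past the limit in cells labelled wild type and Htt-null and 0 were higher. Over all tested genes 24.9% and 23.5% were lower and 32.5% and 32.9% higher. The median log2 ratios of the 10 were -0.46 and 0.03. The part of these markers in the Ezh ratio was not tested.

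Jarid2 had the highest level per kb of the 9 in ESC. It gave 756 and 650 CPM in wild-type and Htt-null ESC and 152 and 130 CPM in RA-DIFF labelled wild type and Htt-null. The log2 ratio was -2.32 in both genotypes (-2.34 to -2.29 in cells labelled wild type and -2.35 to -2.29 in cells labelled Htt-null), or 4.98-fold and 4.99-fold lower. Of the 9 genes, its ratios in the 2 genotypes were the closest to each other by the labels, but with exchanged labels they were -2.54 and -2.10. Jarid2 lies at chr13:44729474-44921643 on the plus strand.

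Of the other core genes of PRC2, Suz12 and Eed were lower in RA-DIFF and the histone-binding subunits Rbbp4 and Rbbp7 were within the limit. Suz12 had 465 and 512 CPM in wild-type and Htt-null ESC and 188 and 186 CPM in RA-DIFF, with log2 ratios of -1.31 in cells labelled wild type and -1.46 in cells labelled Htt-null. Eed was lower by 1.20 and 1.24. The log2 ratios of Rbbp4 were 0.10 and 0.23 and those of Rbbp7 -0.01 and 0.21. Relative to Suz12, Jarid2 was 2.01-fold and 1.81-fold lower in RA-DIFF, while Ezh2 was 3.03-fold and 3.33-fold higher.

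Of the 14 genes listed for PRC2 and its accessory subunits, which include Ezh1, Ezh2 and Jarid2, 7 were lower and 1 higher in cells labelled wild type and 7 lower and 2 higher in cells labelled Htt-null, with medians of -0.78 and -0.98. Over all tested genes 24.9% were lower and 32.5% higher in cells labelled wild type, and 23.5% and 32.9% in cells labelled Htt-null. Among the PCL proteins, which bind unmethylated CpG sequence, Mtf2 was lower by 2.73 and 2.62 and Phf1 higher, with log2 ratios of 0.78 and 0.85. Phf19 went from 23.6 and 18.9 CPM in wild-type and Htt-null ESC to 18.4 CPM in RA-DIFF labelled wild type and 70.7 CPM in RA-DIFF labelled Htt-null, so it was past the limit in only 1 genotype (log2 ratios -0.36 and 1.90). The largest decreases in cells labelled wild type were in the PRC2 inhibitor gene Ezhip (AU022751, -6.22 and -1.32) and in Epop (E130012A19Rik, -3.09 and -3.87), which links the complex to elongin.

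Of 13 genes of canonical PRC1, 6 of which are among the 9, 6 were higher and 3 lower in cells labelled wild type and 8 higher and 3 lower in cells labelled Htt-null. Their medians, 0.55 and 0.89, compare with 0.11 and 0.16 over all tested genes, of which 32.5% and 32.9% were higher and 24.9% and 23.5% lower. The polyhomeotic genes, which join PRC1 complexes to each other, were exchanged as the Cbx genes were. Phc1 was lower by 2.43 in both genotypes and Phc2 was higher with log2 ratios of 4.33 and 3.86. Phc1 had 96.7% and 95.8% of the counts per kb of the 3 Phc genes in wild-type and Htt-null ESC, and Phc2 had 63.2% and 64.4% in RA-DIFF. Scml2 was lower by 3.25 and 2.65. The catalytic Rnf2 was within the limit (-0.24 and -0.22) while its paralogue Ring1 was higher, with log2 ratios of 2.36 and 1.81.

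Of the 20 genes of variant PRC1, 5 were higher and 8 lower in cells labelled wild type and 8 higher and 7 lower in cells labelled Htt-null (medians -0.24 and -0.21), beside the same 32.5% and 32.9% higher and 24.9% and 23.5% lower over all tested genes. Auts2 (2.36 and 2.07) and Fbrs (1.95 and 1.95) had the largest increases, and Mga (-2.78 and -2.37) and Rybp (-1.80 and -1.04) the largest decreases in cells labelled wild type. Of 14 genes for enzymes that remove or oppose the polycomb marks, 4 were higher and 4 lower in cells labelled wild type and 3 higher and 0 lower in cells labelled Htt-null, against these same shares of all genes. Asxl3 (3.59 and 2.90) and Crebbp (1.98 and 2.11) were the highest, and Asxl2 (-1.15 and -0.70) and Kmt2c (-1.05 and -0.48) the lowest in cells labelled wild type.

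Of 15 genes long known as polycomb targets, 9 passed the expression limit, and since a gene silent in ESC could pass it only through RA-DIFF, their count is a description. Of these targets, 4 were higher and 4 lower in cells labelled wild type, against 4 higher and 2 lower with the Htt-null label. Over all tested genes 32.5% and 32.9% were higher and 24.9% and 23.5% lower. The expression limit left out Pax3, Pax7, Nkx2-2, T, Neurog1 and Neurog2, so these counts do not cover them. Each was at 0.369 CPM or less in ESC and above its ESC values in both RA-DIFF libraries. Neurog2 had 0 and 1 counts in wild-type and Htt-null ESC and 4282 and 296 in RA-DIFF labelled wild type and Htt-null. Olig2, a gene of oligodendrocyte and motor neuron precursors, went from 1 and 0 counts in ESC to 35.5 CPM in RA-DIFF labelled wild type and 106 CPM in RA-DIFF labelled Htt-null. Lhx2, a forebrain gene, was higher, with log2 ratios of 5.27 and 4.19. The endoderm genes Gata6 (-2.37 and -1.37) and Sox17 (-1.34 and -0.71) were the lowest in cells labelled wild type.

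The genes with the profile most like that of a member were sought among the 14417 tested genes, for the member with the largest mean increase and that with the largest mean decrease, by the distance between the log2 CPM profiles over the 4 libraries, each centred on its own mean, so that the shape and not the level is compared. For Cbx8 these were Stox2 (distance 0.04), Hs3st3b1 (0.05) and Tuba1a (0.12), and for Cbx7 they were Slc2a3 (0.11), Sptbn4 (0.13) and Gm6802 (0.15). With 4 points to a profile, many genes can lie this close.

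The comparison of genotypes asks whether these genes differ in cells without huntingtin, a protein with a known link to PRC2. In ESC 0 of the 9 were past the limit, where 6.76% of all tested genes were past it (4.03% higher and 2.73% lower in Htt-null). In RA-DIFF the number was again 0, where 18.5% were past it (11% higher and 7.46% lower by the labels). In ESC the log2 ratios of Htt-null over wild type lay between -0.40 (Cbx6) and 0.30 (Ezh1), with a median of -0.07 against -0.04 over all tested genes. In RA-DIFF they lay between -0.72 (Cbx2) and 0.03 (Bmi1) by the labels, with a median of -0.26 against -0.01.

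In ESC, the 4 genes with ratios above 0 were Cbx2 (0.16), Cbx8 (0.25), Ezh1 (0.30) and Pcgf2 (0.18), and these are the 4 of the 9 that lie on chromosome 11. The 1152 tested genes of that chromosome had a median of 0.21 in this comparison. After the chromosome's median was subtracted, the ratios of the 4 were -0.05, 0.04, 0.09 and -0.03. The other 5 genes had ratios between -0.40 and -0.07, with medians of their chromosomes between -0.12 and -0.08. Cbx6 (-0.40, -0.45 to -0.34) was the furthest from its chromosome's median (-0.10), and Ezh2 (-0.26, -0.29 to -0.23) and Cbx7 (-0.22, -0.25 to -0.19) followed.

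The relation of Ezh1 to Ezh2 differed between the ESC libraries: 0.234 (0.227 to 0.241) per kb in wild type and 0.345 (0.334 to 0.356) in Htt-null, a 1.47-fold difference. Ezh1 and Ezh2 lie on chromosomes 11 and 6, whose medians were 0.21 and -0.12, and after these were subtracted their log2 ratios were 0.09 and -0.14 in place of 0.30 and -0.26. In RA-DIFF the 2 libraries had ratios of 0.0537 and 0.0542, which differed by less than the counting error.

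In RA-DIFF the 2 libraries were apart mainly in Cbx2 and Cbx7. Cbx2 was lower by 0.72 (0.68 to 0.76) in the one labelled Htt-null, and Cbx7 by 0.63 (0.54 to 0.72 lower), on the log2 scale. Under scaling by library size alone, Cbx2 was past the limit, as the only one of the 9. Ezh2 (-0.28), Cbx8 (-0.30), Ezh1 (-0.26), Jarid2 (-0.22) and Pcgf2 (-0.12) were lower by smaller amounts, and Cbx6 (0.02) and Bmi1 (0.03) had intervals that include 0. Chromosome medians of the members in this comparison were between 0.00 and 0.07. Exchanged labels turn the sign of all of these. Between the same libraries the pluripotency markers differed (71.1 and 17.5 CPM summed, labelled wild type and Htt-null), as did neuron markers (2495 and 1180 CPM) and markers of fibroblasts and mesenchyme (643 and 2493 CPM). Their part in the differences of Cbx2 and Cbx7 was not tested.

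**Figure D4:**
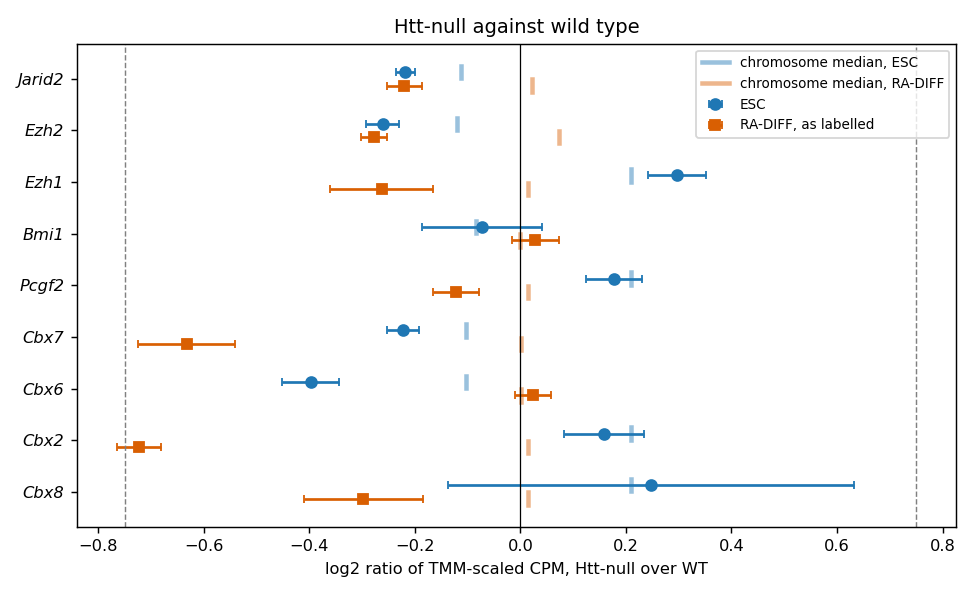
Log2 ratio of TMM-scaled CPM, Htt-null over wild type, of the 9 genes in ESC (circles) and in RA-DIFF as labelled (squares), with 95% counting intervals; the short pale bars are the median ratio of all tested genes on the same chromosome, and dashed lines mark the limit of 0.75. Ezh1, Pcgf2, Cbx2 and Cbx8 have ESC ratios near the chromosome 11 median of 0.21, and Cbx2 and Cbx7 have the lowest ratios in RA-DIFF.

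Small RNA counts of the same conditions gave the levels of 19 miRNAs known to act on Ezh2, Cbx7, Bmi1 or Jarid2, all above the expression limit among 650 tested, from 11976744 to 25656673 counts per library. For these libraries the scaling matters: the median log2 ratio of all tested miRNAs, RA-DIFF over ESC, was 0.06 and -0.19 with TMM in cells labelled wild type and Htt-null, and -1.11 and -2.07 with library size alone. With TMM, 6 of the 19 were higher and 4 lower in cells labelled wild type (34.5% and 31.4% of all tested miRNAs), and 10 were higher and 5 lower in cells labelled Htt-null (30.5% and 39.5%). With library size alone, 5 were higher and 11 lower in either genotype, where 17.2% of all tested miRNAs were higher and 57.8% lower in cells labelled wild type and 11.4% and 75.4% in cells labelled Htt-null, so the number lower is at or below the background. Between the genotypes, with TMM and by the labels, 2 of the 19 were higher in Htt-null and 4 lower in ESC (23.5% and 15.8% of all tested miRNAs), and 5 were higher and 2 lower in RA-DIFF (14% and 12.9%).

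The miR-181 pair, whose seed matches in Cbx7 are shown above, had the largest increase of the 19. miR-181a-5p was at 96.9 and 94.99 CPM in wild-type and Htt-null ESC and at 15295 and 49739 CPM in RA-DIFF labelled wild type and Htt-null (log2 ratios 7.30 and 9.03). miR-181b-5p was at 8.24 and 14.6 CPM in ESC and at 1897 and 5796 CPM in RA-DIFF (7.85 and 8.64). With library size alone the ratios of both were still between 6.14 and 7.16, so these 2 miRNAs were far higher in RA-DIFF under either scaling, where Cbx7 mRNA was lower. Of the other members with a miR-181 match, Cbx8 was higher in RA-DIFF, Pcgf2 was within the limit and Jarid2 was lower. A link between any of the 19 miRNAs and the gene it is listed for was not tested.

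Of the miR-125 pair, miR-125b-5p was at 87.7 and 34.3 CPM in wild-type and Htt-null ESC and at 599 and 829 CPM in RA-DIFF, higher under both scalings (2.77 and 4.59 with TMM, 1.61 and 2.72 with library size alone). miR-125a-5p had ratios of 0.16 and 1.54 with TMM but -1.004 and -0.33 with library size alone, so its direction depended on the scaling. By the labels, Htt-null over wild type in RA-DIFF, the log2 ratio was 1.70 for miR-181a-5p and -0.63 for Cbx7. The labels of the small RNA libraries were not checked, so it is not known whether the 2 values are of the same cells.

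**Figure D5:**
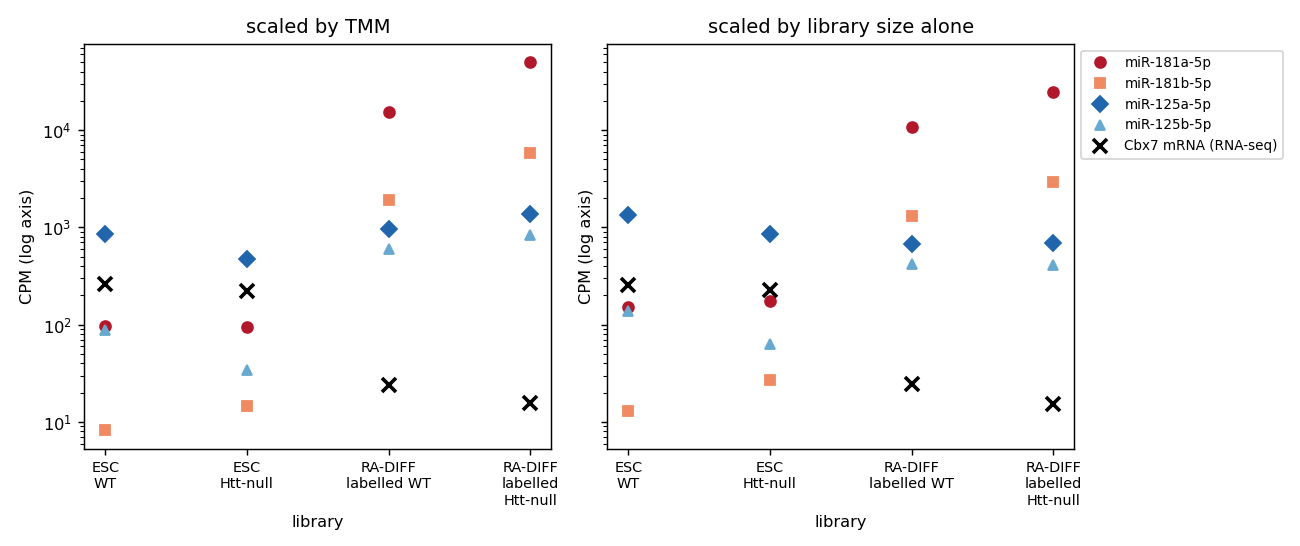
CPM (log axis) of the miRNAs known to act on Cbx7 in the 4 small RNA libraries, and of Cbx7 mRNA in the RNA-seq libraries (crosses), scaled by TMM (left) and by library size alone (right), 1 point per library. miR-181a-5p and miR-181b-5p are higher in RA-DIFF under both scalings, miR-125a-5p changes direction with the scaling, and Cbx7 is lower in RA-DIFF.

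The miRNAs of Ezh2 shown above were within the limit with TMM in RA-DIFF over ESC. miR-101a-3p was at 1801 and 1887 CPM in wild-type and Htt-null ESC and at 1293 and 1694 CPM in RA-DIFF (log2 ratios -0.48 and -0.16), and miR-26a-5p, at 12107 and 7171 CPM in ESC, was at 7778 and 6194 CPM in RA-DIFF (-0.64 and -0.21). With library size alone both were past it, at -1.64 and -2.03 for miR-101a-3p and -1.80 and -2.09 for miR-26a-5p. Among the others, let-7a-5p was past the limit with TMM in cells labelled Htt-null only (2.22, against 0.48 in cells labelled wild type), as were let-7c-5p (1.10 against 0.52) and miR-214-3p, with at most 19.2 CPM (2.94 against -0.41). With library size alone the ratios in cells labelled Htt-null were 0.35 for let-7a-5p, within the limit, -0.78 for let-7c-5p, past it in the other direction, and 1.06 for miR-214-3p. let-7b-5p, with at most 12.6 CPM and the same seed as let-7a-5p, was lower in both (-2.77 and -1.25, or -3.93 and -3.13 with library size alone). The difference between the genotypes was not tested.

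Of the miRNAs of Bmi1, the miR-200 pair and miR-183-5p were lower in RA-DIFF under both scalings, where Bmi1 was higher. miR-200b-3p went from 742 and 492 CPM in wild-type and Htt-null ESC to 154 and 73.9 CPM in RA-DIFF, and miR-200c-3p from 154 and 120 CPM to 29.1 and 10.4 CPM. miR-183-5p, the most abundant of the 19 in ESC at 73315 and 62040 CPM, was at 747 and 597 CPM in RA-DIFF (log2 ratios -6.62 and -6.70). The 3′ untranslated region of Bmi1 had 0 matches to its seed, which says only that these 7 letters are not in that region. The other miRNAs of Bmi1 were higher with TMM, as Bmi1 was. miR-203-3p had ratios of 1.95 and 3.29 with TMM and 0.79 and 1.42 with library size alone, and miR-128-3p had 0.92 and 1.06 with TMM and -0.25 and -0.82 with library size alone. miR-218-5p was higher with TMM (2.496 and 1.64), with ratios of 1.33 and -0.24 with library size alone. For Jarid2, miR-155-5p was low in all 4 libraries, from 13.02 to 28.9 CPM, with log2 ratios of -0.38 and -1.15 (-1.55 and -3.03 with library size alone).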

How the data were processed

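The authors aligned the RNA-seq reads (strand-specific dUTP libraries, 50 bp paired-end) to GRCm38.p4 with TopHat 2.0.14 assigned them to GENCODE genes with HTSeq 0.6.1 and deposited the raw counts. They trimmed small RNA reads with cutadapt 1.3, mapped reads of 16 to 25 bases to miRBase release 21 with BWA 0.7.5a-r418 and deposited counts of uniquely mapped reads.

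TMM factors (edgeR 4.0.16, R 4.3.3) scaled the counts to CPM, and log2 ratios were taken without a prior count, with a count of 0 set to 3. The limits were an absolute log2 ratio above 0.75 and a mean log2 CPM above 0. Quasi-likelihood tests were not run: within a comparison there are no replicates, and an additive fit of stage and genotype, which would leave 1 residual degree of freedom, was not made. Intervals are exact binomial or Poisson intervals at the 95% level; changes of a ratio between libraries are normal approximations on the log scale. Paralogues were compared per kb of the union of exons in GENCODE vM21 (GRCm38), which has 32304 of the 32567 genes. The 3′ untranslated region is the longest annotated one. Alternatives were DESeq2 1.42.0 size factors, library size alone, other limits, exact tests at assumed dispersions of 0.01 and 0.1, exchanged RA-DIFF labels, chromosome medians and other lengths. The calling step was tested on simulated data. Of each list, the text names the other genes of a family and those with the 2 largest increases and decreases in cells labelled wild type, and for 2 members the 3 nearest profiles. The Cbx shares and the canonical PRC1 list leave out 1 gene, which is not reported here. The members, lists and miRNAs were chosen with earlier results of these data known.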

Additional observations from a re-analysis of the deposited data

Results flagged for a closer look

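In ESC and RA-DIFF some genotype ratios had opposite signs, with both counting intervals clear of 0. None of these differences was tested, since each rests on 4 libraries and on the RA-DIFF labels, and exchanging those labels would give both stages 1 sign. Cbx2 had a log2 genotype ratio (Htt-null over wild type) of 0.16 at the ESC stage but -0.72 after differentiation, a difference of -0.88. Ezh1 (0.30 and -0.26, difference -0.56) and Pcgf2 (0.18 and -0.12, difference -0.30) went the same way, and all 3 lie on chromosome 11, whose tested genes had a median of 0.21 in ESC and 0.01 in RA-DIFF. Among the ratios of paralogues, the genotype difference of Bmi1 over Pcgf2 was -0.25 in ESC and 0.15 in RA-DIFF (difference 0.40) and that of Cbx7 over Cbx6 was 0.17 and -0.66 (difference -0.83).

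Among the miRNAs, the difference between the stages was 3.35 for miR-214-3p (-0.57 in ESC and 2.78 in RA-DIFF), 1.82 for miR-125b-5p (-1.35 and 0.47), 1.74 for let-7a-5p (-0.95 and 0.80), 1.51 for let-7b-5p (-0.44 and 1.07), 1.38 for miR-125a-5p (-0.87 and 0.51), 1.34 for miR-203-3p (-0.67 and 0.67), 0.57 for let-7c-5p (-0.09 and 0.49) and -0.26 for miR-26b-5p (0.13 and -0.12). With library size alone, miR-125b-5p (-1.12 and -0.01) and let-7c-5p (0.14 and 0.00) no longer had opposite signs, and the RA-DIFF ratio was 0.03 for miR-125a-5p and 0.19 for miR-203-3p.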

How the results depend on the processing

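The labels give no replicate numbers that could pair libraries, and no paired analysis was made. A fit of stage with genotype as a block was not run, and with 1 library per condition no replicate was left out. Of the alternatives to the numbers of members past the limit, 3 moved the number by over 1.5 times. The number of genes higher in cells labelled Htt-null was 2 in place of 4 with a limit of 1 on the log2 ratio (without Cbx2 and Cbx6) and with the exact test at a dispersion of 0.1, and the number lower in RA-DIFF, Htt-null against wild type, was 1 in place of 0 with library size alone. At the dispersion of 0.1, 3185 of the 14417 tested genes were higher in cells labelled Htt-null. The shares of all genes under the limit of 1 and under library size alone are not given here. With exchanged RA-DIFF labels the directions of the called members were kept in both RA comparisons; the log2 change of Bmi1 over Pcgf2 was 2.03 and 2.13 in cells labelled wild type and Htt-null, and that of Cbx7 over Cbx2 was -5.08 in cells labelled wild type.

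Levels between genes depend on the length used. In the order wild-type ESC, Htt-null ESC, RA-DIFF labelled wild type and RA-DIFF labelled Htt-null, Ezh1 over Ezh2 was 0.173, 0.255, 0.0396 and 0.0400 with the longest transcript and 0.261, 0.384, 0.0598 and 0.0604 without a length. Bmi1 over Pcgf2 was 0.172, 0.144, 0.635 and 0.704, and 0.249, 0.209, 0.918 and 1.02. The share of Cbx7 was 67.1%, 65.5%, 7.21% and 6.21% with the longest transcript, and 67.4%, 67.2% and 8.42% in the first 3 without a length.

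For the miRNAs, library size alone gave 11 lower in cells labelled wild type, 5 higher and 11 lower in cells labelled Htt-null, 1 lower between genotypes in ESC, and between genotypes in RA-DIFF 3 higher and 5 lower. DESeq2 size factors gave 1 higher in ESC between genotypes, and exchanged labels 2 higher and 5 lower in RA-DIFF. Of 650 tested miRNAs, library size alone put 57.8% lower in cells labelled wild type, and 11.4% higher and 75.4% lower with the Htt-null label. With exchanged labels, 12.9% were higher and 14% lower between the RA-DIFF genotypes with TMM. For the other genotype counts no such share is given here, so they lack a background. Library size alone moved the median genotype log2 ratio of the 650 from -0.04 to 0.19 before differentiation and from -0.04 to -0.52 after it. Depth limits Cbx8 most, with 109 and 122 counts in ESC.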
